A study of Mus musculus with 6 samples.

Results

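Transcripts of the mitochondrial ribosome were compared between cytotoxic T cells that carried a mutant form of the histone deacetylase HDAC7 and control cells from the same infected cultures. The genes were those of the array annotation whose symbol starts with Mrpl or Mrps followed by a digit, which gave 76 genes of the 18193 named on the array. Each gene was represented by its probe set with the highest mean log2 signal over the 6 arrays, among probe sets assigned to 1 gene symbol only. All 76 genes lay above the signal limit for testing. Of the 76, 49 encode proteins of the large subunit and 26 proteins of the small subunit. Mrps18a and Mrps30 carry small-subunit symbols, but their products are now placed in the large subunit. Mrps36 met the symbol rule although its product is now known as a component of the 2-oxoglutarate dehydrogenase complex, so it was counted among the 76 and kept apart from both subunits. Mrpl30 and Mrpl53 were met only by probe sets that also carry the symbol of another gene, and were not included.

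The mitochondrial ribosome translates the few messages encoded by mitochondrial DNA, whose products are core subunits of the respiratory chain and of ATP synthase. Its RNAs come from the mitochondrial genome, whereas all of its proteins are encoded in the nucleus, made in the cytosol and imported, so the particle depends on expression from both genomes. Some of its proteins have bacterial counterparts, and others were added in the mitochondrial lineage. When a T cell is activated it enlarges, divides and builds mitochondria, and mitochondrial translation is needed for cytotoxic T cells to sustain the synthesis of their effector proteins.

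The cells were P14 cytotoxic T cells, whose transgenic receptor is specific for gp33, a viral peptide. Splenocytes of the C57Bl/6 strain were stimulated with gp33 for 24 h and then received a retrovirus carrying HDAC7, altered so that it cannot be phosphorylated and fused to GFP. Class IIa deacetylases such as HDAC7 leave the nucleus when they are phosphorylated. The 3 GFP positive samples hold sorted cells that express the construct, and the 3 GFP negative samples, labelled control, hold the cells of the infected cultures that lack GFP. All 6 samples share the receptor transgene, the peptide activation and the exposure to virus. The labels name no deletion of the endogenous Hdac7 gene, and the sources used here give neither the promoter that drives the construct nor the age of the mice. A control with GFP alone was not analysed here. The labels number the samples as biological replicas without naming animals or cultures, so p-values measure the spread between these samples, which may in part be technical.

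The targeted gene matched the labels, with an Hdac7 log2 signal of 8.15 ± 0.05 (SD, n = 3) in the GFP positive samples against 4.83 ± 0.03 in the controls. A second, dimmer Hdac7 probe set read the other way, with a change of -0.55. The median log2 signal of all 13194 tested genes was 4.54 to 4.63 in the GFP negative samples and 4.72 to 4.80 in the GFP positive samples. Control probe sets that match no mouse transcript averaged 0.635 ± 0.026 and 0.664 ± 0.062 in the 2 groups, and the 76 genes lay far above them, with mean log2 signals from 5.17 to 9.49. The array signal of bulk cells does not separate fewer cells of a type from less RNA per cell.

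The promoters of the genes that carry the comparison are shown first. Promoter windows of 300 bases, from 250 before to 50 after the annotated start, were taken from RefSeq (assembly GRCm38.p6) and were at hand for 67 of the 76 genes, 37 of which fell. They are printed 5′ to 3′ on the strand of the gene, with matches to the searched motifs in capitals. Mrps10 showed the largest fall of all, and Mrpl12 encodes the stalk protein of the large subunit. Mrpl36 fell and is 1 of 5 members with an E-box in this window, and Mrps21 was the member that rose.
Mrps10 promoter, chr17:47368947-47369246, plus strand: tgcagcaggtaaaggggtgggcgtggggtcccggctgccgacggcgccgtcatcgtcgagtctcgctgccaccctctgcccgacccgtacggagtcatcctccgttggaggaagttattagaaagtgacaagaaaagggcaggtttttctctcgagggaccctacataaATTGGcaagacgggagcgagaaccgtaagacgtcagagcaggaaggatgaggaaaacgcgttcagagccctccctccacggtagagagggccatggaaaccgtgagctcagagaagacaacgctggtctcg
Mrpl12 promoter, chr11:120484387-120484686, plus strand: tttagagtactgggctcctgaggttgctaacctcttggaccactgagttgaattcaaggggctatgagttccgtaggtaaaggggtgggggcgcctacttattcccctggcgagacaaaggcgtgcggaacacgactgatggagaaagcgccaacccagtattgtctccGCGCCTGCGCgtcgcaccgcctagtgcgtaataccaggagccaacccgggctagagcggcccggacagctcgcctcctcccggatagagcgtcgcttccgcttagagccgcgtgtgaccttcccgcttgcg
Mrpl36 promoter, chr13:73330759-73331058, plus strand: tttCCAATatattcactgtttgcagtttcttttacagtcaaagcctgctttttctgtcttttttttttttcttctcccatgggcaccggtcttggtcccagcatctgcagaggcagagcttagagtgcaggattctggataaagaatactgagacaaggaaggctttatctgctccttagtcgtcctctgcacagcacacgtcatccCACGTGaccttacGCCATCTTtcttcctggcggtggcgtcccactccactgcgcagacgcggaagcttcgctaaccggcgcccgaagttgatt
Mrps21 promoter, chr3:95871465-95871764, minus strand: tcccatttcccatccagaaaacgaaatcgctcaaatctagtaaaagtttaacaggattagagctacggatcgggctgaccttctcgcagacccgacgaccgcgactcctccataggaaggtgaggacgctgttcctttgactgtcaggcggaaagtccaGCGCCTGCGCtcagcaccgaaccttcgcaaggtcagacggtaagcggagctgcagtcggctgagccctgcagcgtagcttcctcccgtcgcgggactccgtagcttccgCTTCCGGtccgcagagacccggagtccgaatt
The Mrps10 window holds a CCAAT match on the opposite strand, the Mrpl12 window a match to the NRF1 core, the Mrps21 window a match each to the NRF1 core and the ETS motif, and the Mrpl36 window CCAAT, E-box and YY1 matches. These letters are a description of the windows and do not show that a factor binds there.

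Of the 6 motifs searched on both strands, the shares among member genes are given beside those of all genes and of genes with similar array signals. Some genes, such as Mrpl48, have several windows, and a gene was counted once where any of its windows held a match. The ETS motif CCGGAAG stood in windows of 25 of 67 member genes (37.3%). It stood in those of 9.93% of all 27025 genes in the table, and of 25.9% of 4473 genes with array signals in the same range. The YY1 motif AAGATGGC stood in 12 (17.9%), against 3.19% and 6.82%. ETS and YY1 matches can share letters. The NRF1 core (GCGC, any 2 bases, GCGC) stood in 13 (19.4%), against 7.0% of all genes and 18.2% of genes of similar signal. The E-box CACGTG, which MYC and MAX bind, stood in 5 (7.46%), against 8.09% and 12.7%. The Sp1 box GGGCGG stood in 34 (50.7%), against 38.2% and 72.2%, and CCAAT in 26 (38.8%), against 41.1% and 42.9%. Among the promoters of genes that fell, 11 of 37 held the ETS motif, 9 the YY1 motif, 4 the NRF1 core and 4 the E-box. Among the 30 other members these numbers were 14, 3, 9 and 1.

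GFP positive cells had lower signals for most genes of the mitochondrial ribosome. In the fit with limma over all tested genes, with a Benjamini-Hochberg adjusted p under 0.05, 44 of the 76 genes fell (57.9%), 1 rose and 31 did not pass. Over all 13194 tested genes, 17.5% fell and 24.6% rose. The same shares were taken over the 5390 tested genes with mean signals in the members' range, and there 19.9% fell and 34.6% rose. The median change of the 76 genes was -0.30 on the log2 scale, beside -0.02 for all tested genes and 0.10 for genes in the same signal range. The estimate lay below 0 for 70 of the 76, against 6960 of all 13194 tested genes and 2163 of the 5390 in the signal range. With each array centred on the median of its tested genes it lay below 0 for 75. That centring moved the median change of all genes to -0.21, and the share of all genes below 0 was not computed there.

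The falls were moderate. The largest was 1.95-fold, the median fold of the 44 was 1.42, and the smallest that passed was 1.17-fold. A fall of more than 0.5 on the log2 scale was found for 22 genes. The spread between samples of a group was small beside these changes, with a median SD of 0.069 over the members. In 59 of the 76 genes all 3 GFP positive samples lay below all 3 GFP negative samples, which held for 24.2% of all tested genes and 25.8% of those in the same signal range. The reverse order, with GFP positive samples above, held for 2 genes, Mrps21 and Mrpl10, against 29.7% and 42.6%. When the replicate number was fitted as a block, 41 genes fell and the same 1 rose. The shares over all tested genes in that fit were 18.8% and 25.5%.

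**Figure D1:**
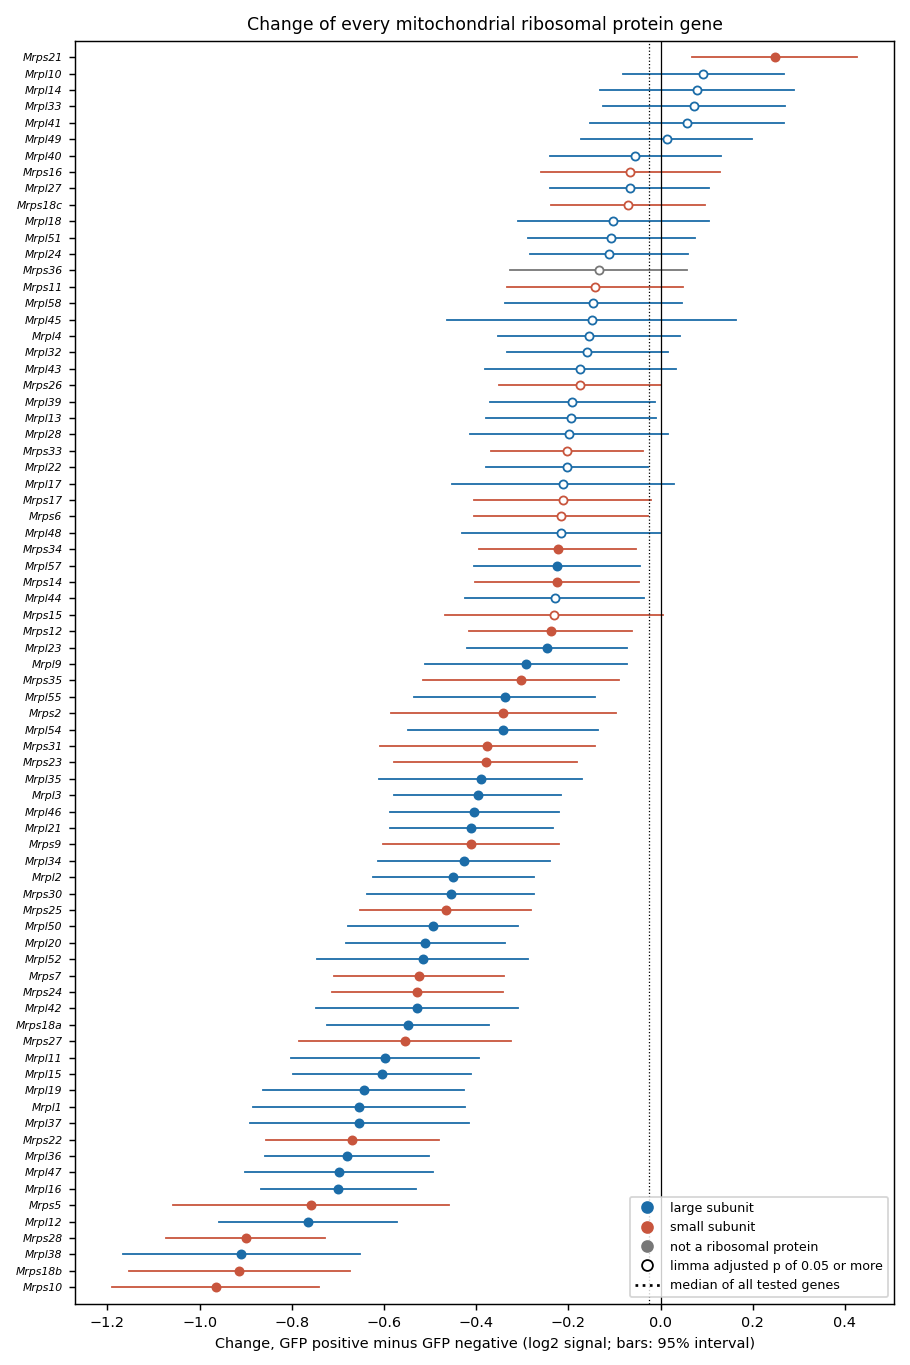
Each point is the change of 1 of the 76 genes (x axis, GFP positive minus GFP negative, log2 signal) with its 95% interval, ordered by size; colour gives the subunit, open points had a limma adjusted p of 0.05 or more, and the dotted line is the median of all tested genes. The points run from -0.97 for Mrps10 to 0.25 for Mrps21, and 70 of 76 lie below 0.

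**Figure D2:**
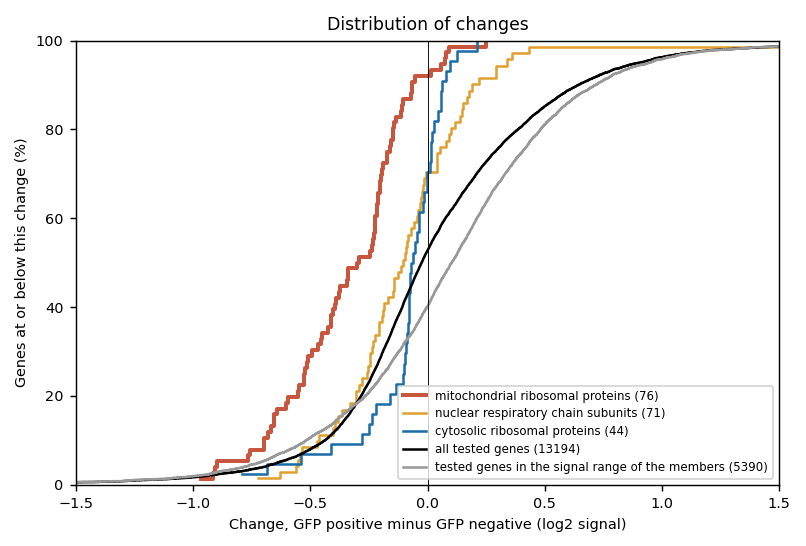
The share of genes (y axis, %) with a change at or below the value on the x axis (GFP positive minus GFP negative, log2 signal) is drawn for the mitochondrial ribosomal genes and for comparison sets of tested genes. The median of the mitochondrial ribosomal genes is -0.30 and that of all tested genes -0.02.

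Both how the arrays are scaled and which samples are used bear on these counts. With each array centred on the median of its tested genes, which moved the median change of all genes from -0.02 to -0.21, 68 of the 76 genes fell and 0 rose, with 0 higher at an unadjusted p under 0.05 (limma). In that setting 38.7% of all tested genes fell and 16.3% rose, against 17.5% and 24.6% as deposited. The share of calls over all genes that were higher was then 29.7%, against 58.4% as deposited. Centring shifts every gene alike, so the median of the members minus that of all genes, -0.27, is the same by construction. Leaving out each sample in turn left 34 to 39 genes that fell and 0 that rose, with 1 higher at an unadjusted p under 0.05 each time. Of all tested genes 12.1% to 18.4% fell in these fits and 19.9% to 24.0% rose. Without GFP negative 1 and GFP positive 3 together, 33 fell, beside 9.48% of all tested genes. In all 6 of the fits that left out a single sample and in the fit of all samples, 33 genes fell throughout.

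Genes of the small subunit, which holds the decoding site, included 3 of the 4 largest falls. Of its 26 genes, 17 fell, 1 rose and 8 did not pass, with a median change of -0.32. Mrps10, a conserved protein of the head of the small subunit, read 7.57, 7.75 and 7.54 in GFP negative samples 1 to 3 and 6.57, 6.79 and 6.61 in GFP positive samples 1 to 3 (log2 signal). The lowest GFP negative sample lay well above the highest GFP positive sample. The change was -0.97 ± 0.10 (SE), a 1.95-fold fall with a limma adjusted p of 0.00024. Mrps10's only other probe set above the limit, a dim one, had a change of -0.16 and did not pass.

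Mrps18b, 1 of the 3 mammalian relatives of bacterial S18, read 7.56, 7.59 and 7.59 in GFP negative and 6.55, 6.88 and 6.57 in GFP positive samples. All GFP positive samples were lower, with GFP positive 2 the least so. The change was -0.91 ± 0.10 (SE; limma adjusted p = 0.00036). Mrps28, a relative of bacterial S1, read 7.65, 7.73 and 7.72 against 6.76, 6.83 and 6.81. The samples of each group lay close together and the groups did not overlap, and the fall of 1.87-fold (-0.90 ± 0.07, SE) had the smallest adjusted p of the members, 0.00012 with limma. Mrps5, the counterpart of a bacterial protein that bears on decoding accuracy, read 6.71, 7.01 and 6.70 against 5.91, 6.28 and 5.96. Sample 2 was the highest of its group on both sides, and the groups did not overlap. Mrps5 fell by 0.76 ± 0.13 (SE; limma adjusted p = 0.0024), and its 4 other probe sets fell too, with changes from -0.63 to -0.48. Mrps22, a protein of the small subunit with no bacterial counterpart, fell by 0.67 ± 0.08 (SE; limma adjusted p = 0.00049), from 7.40 ± 0.056 to 6.73 ± 0.081 (SD, n = 3).

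The other small-subunit genes that fell were Mrps27, Mrps24, Mrps7, Mrps25, Mrps9, Mrps23, Mrps31, Mrps2, Mrps35, Mrps12, Mrps14 and Mrps34, with changes from -0.55 to -0.22. Of these, Mrps14 and Mrps34 lost their call with the replicate number as a block. Mrps12, Mrps14 and Mrps34 lost it when any single sample was left out, and Mrps2, Mrps31 and Mrps35 in part of those fits. The 9 small-subunit proteins without a bacterial counterpart stood apart between groups in every case, with GFP positive below, and 7 of them fell (median -0.38). Of the 17 with a bacterial counterpart, 10 fell and 1 rose (median -0.24). Among these 17 the groups stood apart with GFP positive below in 13 and above in 1. Over all tested genes 24.2% stood apart with GFP positive below. Mrps15, Mrps6, Mrps17, Mrps33, Mrps26, Mrps11 and Mrps18c did not pass, with changes from -0.23 to -0.07.

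In the large subunit, which forms peptide bonds and carries the exit tunnel, 27 of 49 genes fell, 0 rose and 22 did not pass (limma; 0 higher at an unadjusted p under 0.05). The median change was -0.29. Mrpl38, a mitochondria-specific protein of the central protuberance, read 5.49, 5.75 and 5.63 in GFP negative samples and 4.62, 4.91 and 4.62 in GFP positive samples. Its groups did not overlap, and GFP negative 2 and GFP positive 2 were the highest of their groups. The change was -0.91 ± 0.11 (SE; limma adjusted p = 0.00051), a 1.88-fold fall.

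Mrpl12, the stalk protein that contacts translation factors, read 9.08, 9.19 and 9.23 against 8.31, 8.43 and 8.46. The lowest control sample was well above the highest GFP positive sample. It fell 1.70-fold (-0.77 ± 0.08, SE; limma adjusted p = 0.00032). Mrpl10, which anchors Mrpl12 at the stalk base and was singled out after its values were seen, read 6.80, 6.87 and 6.86 against 6.87, 6.98 and 6.95. Those groups touched without crossing, with GFP positive the higher, and the change of 0.09 did not pass (limma adjusted p = 0.35, 95% interval -0.08 to 0.27).

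Mrpl16, a conserved protein close to the tRNA sites, read 7.79, 7.81 and 7.73 against 7.07, 7.09 and 7.09. The GFP positive samples lay almost on top of each other, and the fall was 1.62-fold (-0.70 ± 0.07, SE; limma adjusted p = 0.00027). Mrpl47, related to the bacterial protein L29 near the exit of the tunnel, fell by 0.70 ± 0.09 (SE; limma adjusted p = 0.0006), from 7.43 ± 0.026 to 6.73 ± 0.13 (SD, n = 3). Mrpl36, the counterpart of a very small bacterial protein, fell by 0.68 ± 0.08 (SE; limma adjusted p = 0.00036), from 7.23 ± 0.053 to 6.55 ± 0.051. Mrpl37, which is specific to mitochondria, fell by 0.65 ± 0.10 (SE; limma adjusted p = 0.0017), and Mrpl1, the protein of the mobile L1 stalk, by 0.65 ± 0.10 (SE; limma adjusted p = 0.0014). In each of these 4 genes every GFP positive sample lay below every GFP negative sample. Mrpl1's only other probe set above the limit, a dimmer one, had a change of 0.03 and did not pass. That of Mrpl47, also dimmer, had a change of -0.06 and did not pass.

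Mrpl42 had the brightest probe set of the large subunit and read 9.21, 9.47 and 9.31 against 8.73, 8.89 and 8.79. It fell 1.44-fold (-0.53 ± 0.10, SE; limma adjusted p = 0.0031). The other large-subunit genes that fell were Mrpl19, Mrpl15, Mrpl11, Mrps18a, Mrpl52, Mrpl20, Mrpl50, Mrps30, Mrpl2, Mrpl34, Mrpl21, Mrpl46, Mrpl3, Mrpl35, Mrpl54, Mrpl55, Mrpl9, Mrpl23 and Mrpl57, with changes from -0.64 to -0.22. Mrpl57 lost its call with the replicate block and when any single sample was left out. Mrpl9, Mrpl23, Mrpl54 and Mrpl55 lost theirs in part of the fits without a single sample. Among the 29 large-subunit proteins with a bacterial counterpart 17 fell (median -0.39), and among the 20 without one 10 fell (median -0.23). Over both subunits 27 of 46 genes with a bacterial counterpart fell and 17 of 29 without one, with medians of -0.32 and -0.30. The difference between these classes was not tested.

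**Figure D3:**
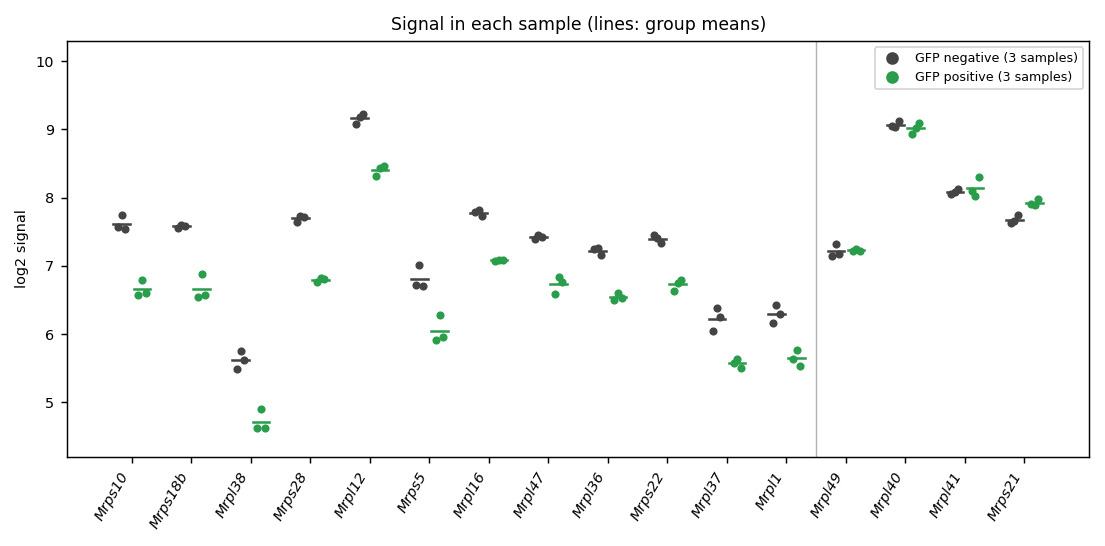
The log2 signal (y axis) of named mitochondrial ribosomal genes is shown for each sample (points) with group means (lines), dark for GFP negative and green for GFP positive. In the 12 genes left of the divider the groups do not overlap and GFP positive is lower, as in Mrps28 at 6.76 to 6.83 against 7.65 to 7.73.

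The genes that did not fall include conserved proteins of both subunits. Mrps21, the counterpart of bacterial S21, read 7.63, 7.65 and 7.75 in GFP negative and 7.91, 7.90 and 7.98 in GFP positive samples. All GFP positive samples were higher, by less than the falls above. Its rise of 0.25 ± 0.08 (SE; limma adjusted p = 0.034) lost its call when any single sample was left out, with changes from 0.22 to 0.28, and was 0.07 (not passed) with each array centred. Mrps16, whose probe set was the brightest of the small subunit, read 9.52, 9.51 and 9.54 against 9.56, 9.48 and 9.34. Those groups overlapped, and the change was -0.07 (limma adjusted p = 0.55, 95% interval -0.26 to 0.13).

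The changes nearest 0 belonged to Mrpl49, Mrpl40 and Mrpl41. Mrpl49 read 7.14, 7.32 and 7.18 against 7.22, 7.24 and 7.21, a difference of 0.01 with a 95% interval of -0.17 to 0.20. Mrpl40 read 9.05, 9.04 and 9.13 against 8.93, 9.03 and 9.09, and its 95% interval was -0.24 to 0.13. Mrpl41 read 8.05, 8.09 and 8.12 against 8.10, 8.03 and 8.30, with an interval of -0.15 to 0.27. The groups of each overlapped, and these intervals leave room for falls smaller than those of the 12 leading genes. With each array centred, Mrpl49 and Mrpl41 turned to -0.17 and -0.13 without passing, and Mrpl40 passed at -0.24. Of the 31 genes that did not pass, all but Mrpl49, Mrpl41, Mrpl33, Mrpl14 and Mrpl10 had an estimate below 0. Mrps36, the dehydrogenase component, had a change of -0.13 and did not pass.

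The pattern was present in every sample. The median log2 signal of the 76 genes was 7.72, 7.80 and 7.80 in GFP negative samples 1 to 3 and 7.48, 7.54 and 7.42 in GFP positive samples 1 to 3. Of the 76 genes, 68, 68 and 62 lay below all 3 GFP negative samples in GFP positive samples 1, 2 and 3. Paired by replicate number, 68, 72 and 69 genes were lower in the GFP positive sample, and the median differences were -0.325, -0.312 and -0.299. Over all tested genes 46.9%, 50.8% and 51.3% were lower in the same pairs. In 66 of the 76 genes all 3 pairs were lower. For that count, and for the counts of genes below all 3 GFP negative samples, the share over all tested genes was not computed.

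Further probe sets of the same genes mostly moved the same way. Above the signal limit, 40 of the 76 genes had 69 other probe sets, of which 58 changed in the direction of the representative one. These calls come from a separate limma fit, adjusted over all probe sets above the limit that carry 1 gene symbol. Of the 69, 32 passed as lower and 0 as higher (limma; 1 higher at an unadjusted p under 0.05). The share over all such probe sets of other genes was not computed. In that fit the representative probe sets of Mrpl9, Mrps12, Mrps14, Mrps34 and Mrpl57 did not pass (limma adjusted p from 0.052 to 0.067). For the genes that fell, 42 of 46 other probe sets were below 0 and 24 passed. Mrpl15, a conserved large-subunit protein, fell on its representative probe set (-0.60) and on the next 3 in brightness (-0.56, -0.62 and -0.65). Its dimmer ones above the limit had changes of -0.11, -0.50 and 0.22, and only that at -0.50 passed. Mrpl13, the counterpart of bacterial L13, was singled out after its values were seen. Its brightest probe set did not pass (-0.19), whereas 2 dimmer ones passed with -0.65 and -0.42. With the dimmest probe set of each gene in place of the brightest, 11 genes were under the signal limit. Of the other 65, 24 fell, 22 of which also fell with the brightest. The share of all tested genes that fell in that setting was 13.3%. Of the 22 genes whose fall was not called with the dimmest probe set, 7 were not tested and 15 did not pass.

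The genes with the dimmer probe sets showed more falls. Probe set signal reflects the probes as well as the transcript, so this is an order of measurements and not of abundance. Of the 26 genes with mean log2 signals up to 7.14, 19 fell (73.1%), of the 25 up to 8.05, 15 fell, and of the 25 above, 10 fell. Tested genes of the same signal ranges fell in 17.9%, 21.8% and 25.3% of cases. Across the 76 genes Spearman's correlation of signal with change was 0.37 (Pearson 0.39), and across genes in the same signal range Spearman's was -0.11. These points come from the same 6 arrays and are not independent, and signal and change were computed from the same values.

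Other genes of mitochondrial gene expression moved down in part. Lists covered 4 roles (translation factors, assembly, transcription and RNA handling, and tRNA charging) and mitoribosomal proteins that carry other symbols. Of their 87 tested genes 35 fell (40.2%), 7 rose (8.05%) and 45 did not pass, with a median of -0.20. The shares over all 13194 tested genes were 17.5% and 24.6%, with a median of -0.02. Among the 4 mitoribosomal proteins under other symbols 3 fell and 1 rose. Gadd45gip1, also known as CRIF1 and placed near the tunnel exit, fell by 0.93 ± 0.09 (SE; limma adjusted p = 0.00022). The small-subunit proteins Chchd1 (-0.59) and Ptcd3 (-0.44) also fell, and the small-subunit GTP-binding protein Dap3 rose by 0.50 ± 0.10 (SE; limma adjusted p = 0.0042). Leaving out GFP negative 2, GFP negative 3, GFP positive 1 or GFP positive 3 ended the Ptcd3 call, at adjusted p from 0.057 to 0.069 with limma.

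Factors that work with the ribosome during translation gave 5 falls (45.5%) and 1 rise (9.09%) among 11 tested genes (median -0.33). The shares over all tested genes were 17.5% and 24.6%. The elongation factor genes Tsfm (-0.66 ± 0.08, SE) and Gfm1 (-0.49 ± 0.11, SE) fell, as did Pdf (-0.44 ± 0.11, SE), which removes the formyl group from new chains. The release factor gene Mtrf1l rose by 0.38 ± 0.09 (SE; limma adjusted p = 0.012), and with each array centred it had a change of 0.19 and did not pass. The falls numbered 3 without GFP negative 2, GFP negative 3 or GFP positive 1.

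Among 29 genes for assembly of the particle and modification of its RNA, 10 fell (34.5%), 2 rose (6.9%) and 17 did not pass (median -0.16). The shares over all tested genes were 17.5% and 24.6%. Noa1, a GTPase of small-subunit assembly, fell by 1.00 ± 0.10 (SE; limma adjusted p = 0.00027). Its 3 GFP positive samples lay below all 3 controls. Fastkd2, which binds the large ribosomal RNA, fell by 0.90, the RNA methyltransferase gene Mrm3 by 0.79 and the GTPase gene Mtg1 by 0.71 (limma adjusted p from 0.00041 to 0.00047). The RNA methyltransferase genes Nsun4 (0.78 ± 0.10, SE) and Trmt2b (0.59 ± 0.09, SE), named here after their values were seen, rose.

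Among 22 genes of mitochondrial transcription and RNA handling 10 fell (45.5%) and 3 rose (13.6%), with a median of -0.22. The shares over all tested genes were 17.5% and 24.6%. Lrpprc, which stabilises mitochondrial messages, fell by 0.99 ± 0.11 (SE; limma adjusted p = 0.00034), and the elongation factor gene Tefm and the helicase gene Supv3l1 fell by 0.59 and 0.64. Polg, the polymerase that copies mitochondrial DNA, rose by 0.87 ± 0.09 (SE; limma adjusted p = 0.00029). Tfam and Polrmt, which start mitochondrial transcription and were singled out after their values were seen, did not pass, with changes of -0.02 and -0.09. Of 21 genes that charge mitochondrial tRNAs 7 fell (33.3%) and 0 rose (limma; 0 higher at an unadjusted p under 0.05), with a median of -0.22. Yars2 fell by 0.76, Nars2 by 0.59, Gars, which also serves the cytosol, by 0.54, and Gatb by 0.42. The falls in that list numbered 4 without GFP negative 3 or without GFP positive 3.

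**Figure D4:**
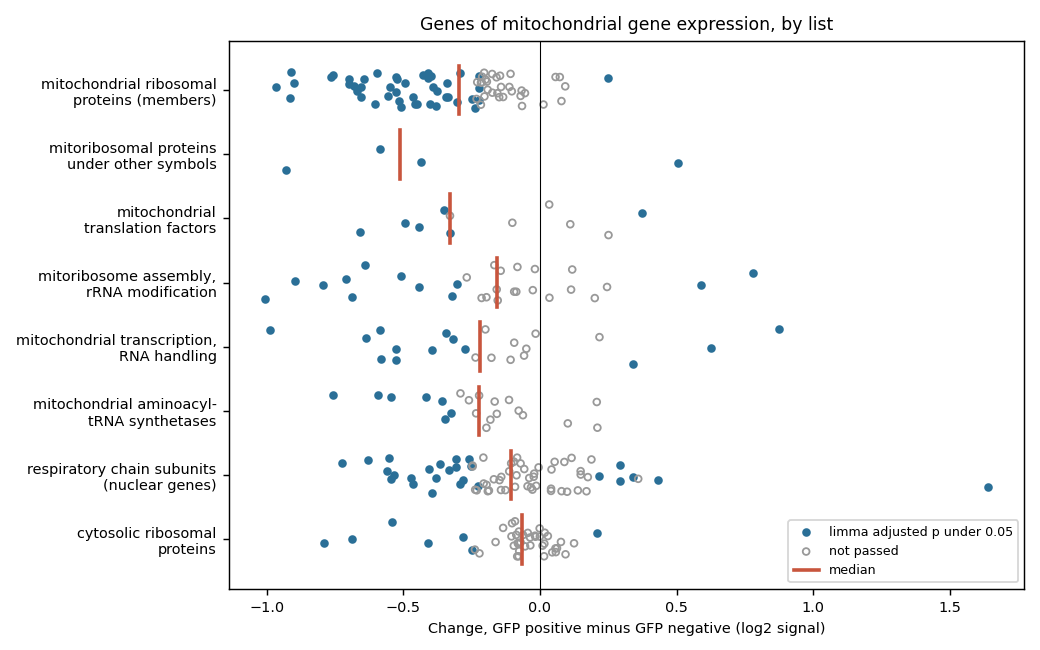
Each point is the change of 1 tested gene (x axis, GFP positive minus GFP negative, log2 signal) in the list named on the y axis, filled where the limma adjusted p was under 0.05, with the list median as a bar. The median of the mitochondrial ribosomal genes is -0.30, beside -0.07 for cytosolic ribosomal proteins and -0.11 for nuclear respiratory chain subunits.

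In 2 related sets, the cytosolic ribosome and the respiratory chain, the median change lay nearer 0. Of 44 tested cytosolic ribosomal protein genes 6 fell (13.6%), 1 rose (2.27%) and 37 did not pass, with a median of -0.07. The shares over all tested genes were 17.5% and 24.6%. All GFP positive samples lay below all GFP negative samples in 21 of the 44 and above them in 7. Over all tested genes these orders held for 24.2% and 29.7%. Rpl12, Rps27l, Rps25 and Rpl14 fell, with changes from -0.79 to -0.41. The median signal of that list, 12.1 on the log2 scale, lies near the top of the array's range. With each array centred 26 of its genes fell, beside 38.7% of all tested genes in that setting. Without any single sample 0 of its genes rose, as with each array centred. Of 71 tested nuclear genes for subunits of respiratory chain complexes and ATP synthase 20 fell (28.2%) and 6 rose (8.45%), with a median of -0.11. In 36 of the 71 all GFP positive samples lay below all GFP negative samples, and in 14 above them. Lower signals without overlap were thus also frequent in both of these sets. Atp5g1, for the ring of ATP synthase, fell by 0.72 ± 0.08 (SE; limma adjusted p = 0.00029), Uqcrq of complex III by 0.63 and Ndufa12 of complex I by 0.55. Cox7a1 of complex IV rose by 1.64 ± 0.08 (SE; limma adjusted p = 2.6e-05). The falls in this list numbered 12 without GFP negative 2 and 13 without GFP positive 2 or without GFP positive 3, and 42 with each array centred. The shares of all tested genes that fell in these fits were, in this order, 13.2%, 13.9%, 12.8% and 38.7%. The rises numbered 2 without GFP negative 3, 3 without GFP positive 2 and 1 with each array centred. The difference between these lists and the mitochondrial ribosomal genes was not tested.

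A single RNA encoded by mitochondrial DNA was on the array under its own symbol. ND5, a core subunit of complex I, read 8.52, 8.90 and 9.07 in GFP negative and 9.30, 9.49 and 9.41 in GFP positive samples. The groups did not overlap, and GFP negative 1 was the lowest. The rise was 0.57 ± 0.14 (SE; limma adjusted p = 0.013), and without GFP negative 1 and GFP positive 3 together it was 0.41 and no longer passed (adjusted p = 0.057). Probe sets on this transcript give the RNA level and not the amount of protein made by the mitochondrial ribosome.

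Regulators known to act on genes of mitochondrial biogenesis moved both ways, with 5 falls (38.5%) and 2 rises (15.4%) among 13 tested genes. The shares over all tested genes were 17.5% and 24.6%. The rises numbered 1 without GFP negative 1, GFP negative 2, GFP positive 2 or GFP positive 3. Myc, a transcription factor that drives ribosome and mitochondrial biogenesis in activated T cells, fell in all 3 GFP positive samples, with a change of -1.12 ± 0.14 (SE; limma adjusted p = 0.00053). Its partner gene Max fell by 1.26 ± 0.09 (SE; limma adjusted p = 7.5e-05), and Pprc1, a coactivator of nuclear genes for mitochondria, fell by 0.57. The brightest probe set of the paralogue Mycn rose from 4.97 ± 0.38 to 11.1 ± 0.16 (SD, n = 3), whereas its dimmest probe set had a change of -0.11 and did not pass. Nrf1, Gabpa, Yy1 and Esrra, for factors that bind promoters of mitochondrial genes, were singled out after their values were seen. Their changes of 0.22, 0.06, -0.05 and -0.02 did not pass. Whether any of these regulators bears on the mitochondrial ribosomal genes was not tested.

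Many of the genes start close to another gene on the opposite strand. In RefSeq, 25 of 67 members (37.3%) had such a start within 1000 bases upstream, against 12.3% of all genes and 23.2% of genes in the same signal range. Of the partners, 22 were tested and were not members. Of these 22, 4 fell (18.2%), 8 rose (36.4%) and 10 did not pass, with a median of -0.07. These shares lay near those of tested genes in the members' signal range, where 19.9% fell and 34.6% rose. Over all tested genes 17.5% fell and 24.6% rose. Of the 22 members facing these partners, 11 fell. The pairs named next were chosen after their values were seen. Mrpl2, a conserved large-subunit protein, fell by 0.45 while Klc4, a kinesin light chain gene 141 bases away, rose by 1.04. Mrps7 fell by 0.52 while Gga3, for an adaptor of the Golgi, rose by 0.36. Mrps5 and Zfp661 fell together (-0.76 and -0.56), as did Mrps27 and Ptcd2 (-0.55 and -0.34) and Mrpl47 and Ndufb5 (-0.70 and -0.25). Mrpl46 and Mrps11 face each other with starts 42 bases apart, and Mrpl46 fell (-0.40) while Mrps11, at -0.14, did not pass. For the 11 tested partners of members that fell, 3 fell, 2 rose and 6 did not pass.

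**Figure D5:**
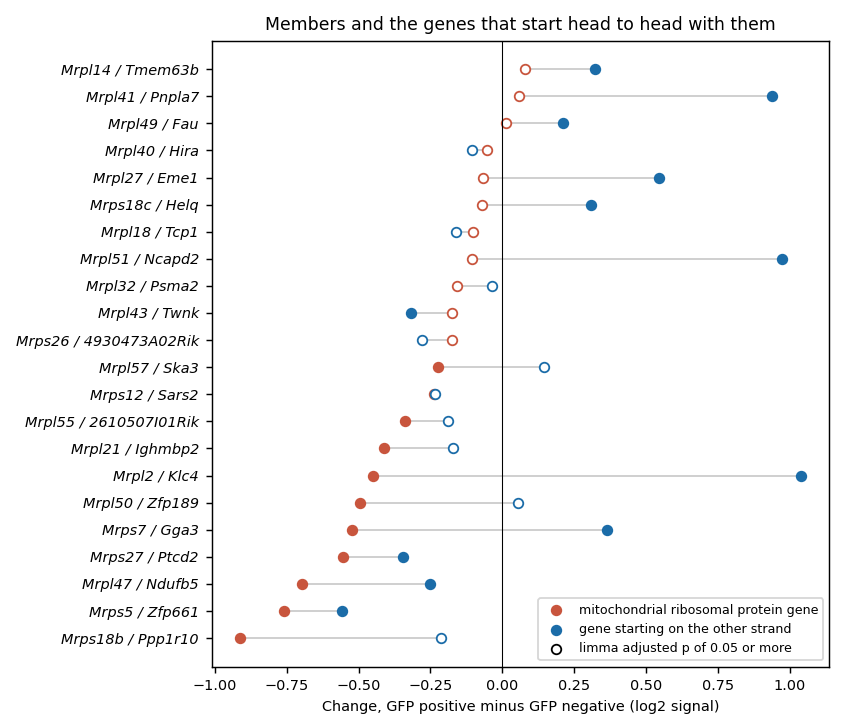
For each pair on the y axis the changes (x axis, GFP positive minus GFP negative, log2 signal) of the mitochondrial ribosomal gene and of the gene that starts head to head with it are joined, and open points had a limma adjusted p of 0.05 or more. The widest gap among members that fell is that of Mrpl2 at -0.45 and Klc4 at 1.04.

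The labelled cell type was checked against marker lists. All 8 cytotoxic T cell markers lay above the limit, and their summed signal (log2 of the sum of linear signals) was 13.3 to 13.4 in GFP negative and 13.1 to 13.2 in GFP positive samples. That sum follows Gzmb, the brightest of them, which fell by 1.00, whereas 5 of the 8 rose: Prf1 (1.5), Cd8a (1.24), Cd8b1 (1.15), Cd3g (0.67) and Cd3e (0.55). The median change of the 8 was 0.61. Summed markers of other cells were far lower. Those of B cells were 4.81 to 5.1 against 4.71 to 5.0 with 3 of 4 markers above the limit. Those of myeloid cells were 4.15 to 4.35 against 4.32 to 4.43 with 3 of 5 above it, and those of stromal cells 3.86 to 4.02 against 4.51 to 4.66 with 2 of 4. CD4 T cell markers summed to 4.27 to 4.41 against 4.46 to 4.63, with 2 of 3 above the limit and Foxp3 below it. Dendritic cell markers, 3 of 3 above the limit, summed to 3.81 to 3.86 against 3.36 to 3.65, and erythroid markers, 1 of 2, to 2.52 to 2.81 against 2.26 to 2.42. Of the 2 NK cell markers 0 were above the limit. Single markers of other cells also passed the test, at low signals. Cd68 of myeloid cells rose by 1.11, Pecam1 of the stromal list by 1.16 and Zbtb7b of CD4 T cells by 0.42, and Flt3 and Zbtb46 of dendritic cells fell by 0.47 each (limma adjusted p from 0.00022 to 0.020). The hybridisation controls, which are added in equal amounts, averaged 7.99 ± 0.18 (SD, n = 3) in the GFP positive samples and 7.78 ± 0.052 in the controls without overlap, which gives 0.1 in an exact permutation test (two-sided), the smallest p that 3 against 3 allows. The difference in log2 signal between 3′ and 5′ probe sets of Actb, a measure of RNA integrity, was 0.512 in the GFP positive samples and 0.472 in the controls (exact permutation p = 0.2, two-sided). The part of these differences in the results was not tested.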

How the data were processed

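Total RNA of the 6 sorted samples was biotin-labelled and read on an Affymetrix mouse array for each sample, per the labels' protocols. The authors deposited log2 signals of 45101 probe sets. Affymetrix Expression Console made them, per the submitters' processing notes, with the summary algorithm and normalization not given in the sources used here. The number of arrays limits the precision.

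Of the probe sets, 34945 carry 1 gene symbol and 932 several, and 9160 are not listed in the annotation table. Each gene was represented by its probe set with the highest mean, and genes under the 40th percentile of mean signal (log2 1.27) were left out. Groups were compared without further normalization by limma 3.58.1, run in R 4.3.3 with lmFit and eBayes, 2-sided and with no term other than group, adjusted over 13194 genes, and a 95% interval comes from that fit. Single control values were compared by exact permutation tests in scipy 1.17.1. The fit was also run on simulated data in which every value was drawn independently. That simulation left out the shared deviations of same-numbered samples described next, so it does not bear on their effect.

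Samples with the same replicate number deviated together from their group means (correlations of 0.474, 0.348 and 0.251 across genes, all above those of other pairs, -0.332 to 0.0416), so a fit with the number as a block is given where it changes a call. The labels do not say what the numbers share. Alternatives were array centring, quantile normalization, 32 added in linear units, other filters and probe set rules, limma's trend and robust options, and leaving out samples. The background of genes in the members' signal range and the sum over lists were added after seeing the data.

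Members, gene lists and tests were chosen with earlier results of these data known. Named by rule were the 12 members with the largest called change in each direction without overlap (only 1 rose), the brightest of each subunit, the 3 smallest changes, Hdac7, Myc and up to 4 genes of each list by unadjusted p. Subunits and bacterial counterparts were assigned from general knowledge. Promoters of members without an entry in the RefSeq table, and protein sequences, were not used here.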

Additional observations from a re-analysis of the deposited data

How the results depend on the processing

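The direction of the comparison held under every alternative run, with the median change of the mitochondrial ribosomal genes below 0 throughout, but its size and counts moved with scaling and probe set choice. Against 44 genes lower, 1 higher and a median of -0.30, centring each array gave 68, 0 and -0.481, quantile normalization 49, 0 and -0.369, 32 added in linear units 54, 1 and -0.238, and the dimmest probe set 24, 0 and -0.224 (65 genes tested, with 7 of the 44 among those under the signal limit). Of all tested genes 38.7%, 21.0%, 14.6% and 13.3% were lower in these 4 settings, against 17.5% in the main fit. The shares that were higher were 16.3%, 20.1%, 24.8% and 16.5%, against 24.6%. At an unadjusted p under 0.05 (limma), 0, 1, 2 and 1 of the mitochondrial ribosomal genes were higher in these 4 settings. Leaving out a sample gave 34 to 39 lower and 0 higher in each of 6 fits, with medians from -0.336 to -0.274. Leaving out GFP negative 1 and GFP positive 3 gave 33 and 0. Of all tested genes 12.1% to 18.4% were lower in the 6 fits, and 9.48% without both samples. In the fit with the replicate block, 41 genes were lower, all shared with the 44, and 1 was higher. The shares over all tested genes were then 18.8% and 25.5%. Among the lists of mitochondrial gene expression 38 were lower and 8 higher in that fit. The block changed no other named call. Those lists, with 35 lower and 7 higher, had 59 lower with centring, and 23 lower and 4 higher with the dimmest probe sets.

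Estimates turned sign for members near 0. Mrpl49 was -0.170 with centring, -0.050 with quantile normalization, -0.039 with the mean of probe sets and -0.091 with the dimmest. It was -0.023 without GFP negative 1 and -0.0034 without GFP negative 3 (up to 0.066, without GFP negative 2). Without both GFP negative 1 and GFP positive 3 it was -0.016. Mrpl41 was -0.126 with centring, -0.102 with the mean, -0.278 with the dimmest, -0.020 without GFP positive 3 (up to 0.113, without GFP positive 2) and -0.038 without both. With the dimmest probe set Hdac7 was -0.550 and Mycn -0.106. Of the other values of named genes under alternatives, 783 kept direction and side of the threshold, 26 lost the call and 1 gained it, and the causes were not tested. Signals are limited at the dim end by background, and 3 samples a group limit what small changes can be called.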
